A study of Mus musculus with 6 samples.

Results

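The expression of 9 genes of the neurogenic programme, Neurog2, Insm1, Neurod1, Eomes, Hes6, Dll1, Mfng, Btg2 and Gadd45g, was examined in primary cortical cell cultures treated with vehicle or 10HDA. The genes were chosen by name, as markers and regulators of intermediate progenitors and of newborn neurons, with no threshold on their values. All 9 were found by Ensembl identifier among the 43346 genes of the count table.

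In the developing cortex, radial glia divide to give intermediate progenitors, which divide again to give excitatory neurons. Proneural transcription factors such as Neurog2 start this step, and Eomes marks the intermediate progenitors. Insm1, Hes6, Btg2, Gadd45g and Neurod1 are switched on along this path, from progenitors about to make neurons to newborn neurons. Cells on this path also make the Notch ligand Dll1, through which they keep neighbouring cells in the progenitor state by way of Hes-type repressors.

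RNA was sequenced from brain cortical cell cultures of mice of gestational day 15.5, labelled with the strain Cyp19-EGFP, a reporter line for the aromatase gene, and with the genotype SRY+. The methods give C57BL/6 as the strain instead. Cells grown on glass coverslips coated with poly D-lysine received either the vehicle DMSO or 10HDA, a royal jelly fatty acid, at 1 mM, with no other agent named for either group. Each treatment had 3 libraries, 1 from each of cultures 1, 3 and 4, and neither the duration of treatment nor the number of embryos per culture is given. Each culture therefore gave a pair of libraries, and the comparison asks how 10HDA changed the level of each gene.

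The libraries held 9144736 to 13367194 counts on genes, and 3 counts corresponded to 0.224 to 0.328 CPM, a limit that covers counting error only. CPM, the counts scaled to a common library total, are given after TMM scaling, which adjusts that total for composition. In both libraries of culture 1, 4 Y-linked genes together had 8.83 CPM with vehicle and 9.41 with 10HDA, against 90.0 to 131 in the other 4 libraries, although all 6 carry the label SRY+. Results are therefore also given without culture 1. Neuronal markers were abundant, with 7424 to 7856 CPM summed over 12 shared neuronal genes in the vehicle libraries. In bulk RNA, fewer cells of a type and less RNA per cell cannot be told apart.

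Insm1, Btg2 and Hes6 had the largest differences among the members that passed the expression filter, and all 3 were higher with 10HDA in 3 of 3 cultures. Insm1 was 1.67-fold, Btg2 1.58-fold and Hes6 1.26-fold higher in the fit of treatment alone. Dll1 and Neurod1 differed little, Gadd45g went in opposite directions in different cultures, and Eomes, Neurog2 and Mfng were measured from few reads. The filter required 10 CPM in 3 or more libraries, which left 10520 genes and 6 of the 9 members. Over these genes, the quasi-likelihood test of edgeR, with p adjusted by the Benjamini-Hochberg method and a threshold of 0.1, found 66 genes, or 0.627%, and 0 of the 6 members. Adjusted p values below are from this test unless another is named, and SE is the standard error of a log2 fold change. At an unadjusted p under 0.05 it found 3 of the 6 members, against 10.1% of all genes, and at the adjusted threshold DESeq2 found 2, Insm1 and Btg2, among 170 genes in all, and limma-voom found 0 among 66. The same 2 passed in edgeR without the 10HDA library of culture 4, at an adjusted p of 0.041 and 0.080, where 350 genes passed in all.

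With culture as a block, which compares the libraries of each culture with each other, the same test found 945 genes, or 8.98%, and 3 of the 6 members, Insm1, Btg2 and Hes6. All 3 were higher with 10HDA, as were 3.91% of all genes tested at that threshold. The median log2 fold change of the 6 members was 0.30, beside -0.0095 for all genes tested, and with the block it was 0.29. Without culture 1 it was 0.53, and 0.52 with the block. The middle members were Hes6 and Gadd45g. With treatment alone, Gadd45g moved most when culture 1 was left out, from 0.27 to 0.65, and Insm1 went from 0.74 to 0.755. A total of 4 members, Insm1, Btg2, Hes6 and Dll1, were higher in 3 of 3 cultures, as were 18.6% of all genes tested. For Insm1 and Btg2 the 3 10HDA libraries lay above the 3 vehicle libraries, which held for 5.96% of all genes tested. Gadd45g was among the 6 through only 1 vehicle and 2 10HDA libraries at 10 CPM or more, so these counts describe the members that passed the filter and not all 9. With filterByExpr, a looser filter of edgeR that kept 15676 genes and all 9 members, 0 members passed with treatment alone (0.498% of genes) and the same 3 with the block (7.33%), and for 2 of 9, Insm1 and Btg2, the 3 10HDA libraries lay above the 3 vehicle libraries (6.79%). Without culture 1 and with treatment alone, the log2 fold changes were 0.73 for Btg2, 0.41 for Hes6, 0.12 for Dll1, 0.075 for Neurod1 and 0.087 for Mfng, and 0 members passed, with 3 genes past the threshold in all.

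**Figure D1:**
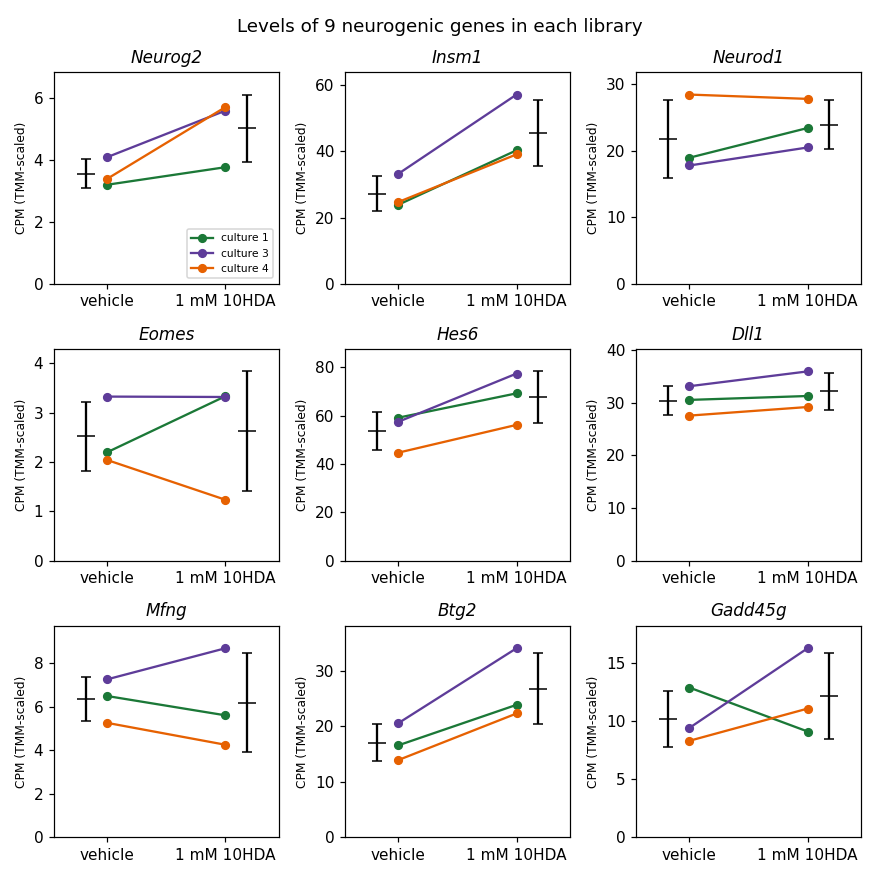
Level of each of the 9 genes in each library, as CPM after TMM scaling on an axis from 0, with vehicle on the left and 1 mM 10HDA on the right. Lines join the libraries of a culture, and the bars at the sides give the mean and SD of 3 libraries. The lines of Insm1 and Btg2 rise in all 3 cultures and end above the highest vehicle library, whereas those of Eomes, Mfng, Gadd45g and Neurod1 cross or diverge.

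Neurog2, a basic helix-loop-helix factor that commits cortical progenitors to the excitatory lineage, is annotated at chr3:127633135-127635631 on the plus strand (GRCm38, as for all positions here). It had 35, 53 and 40 counts in the vehicle libraries of cultures 1, 3 and 4, and 43, 76 and 51 in the 10HDA libraries. In the same order these were 3.21, 4.10 and 3.40 CPM with vehicle and 3.77, 5.60 and 5.72 CPM with 10HDA. The 10HDA library was the higher one in each culture, and the groups overlapped because the 10HDA library of culture 1 was below the vehicle library of culture 3. No library reached 10 CPM, so its test comes from the filterByExpr fit. There the log2 fold change was 0.50 (SE 0.23, 95% CI 0.0080 to 0.99, edgeR adjusted p = 0.48). With culture as a block it was 0.50 (SE 0.20, edgeR adjusted p = 0.19), and without culture 1 it was 0.60.

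Insm1, a zinc finger factor that is expressed as progenitors move from the ventricular surface, lies at chr2:146221921-146225020 on the plus strand and had the largest log2 fold change of the 9. With vehicle it had 23.9, 33.3 and 24.7 CPM in cultures 1, 3 and 4, from 261, 430 and 291 counts. With 10HDA it had 40.4, 57.2 and 39.1 CPM, from 460, 776 and 349 counts. Every 10HDA library was above every vehicle library, and in both treatments culture 3 was the highest. Mean levels were 27.3 ± 5.18 and 45.6 ± 10.1 CPM (mean ± SD, 3 libraries each), and the log2 fold change was 0.74 (SE 0.18, 95% CI 0.36 to 1.13, edgeR adjusted p = 0.15). Within cultures 1, 3 and 4 the log2 differences were 0.75, 0.78 and 0.66. With culture as a block Insm1 rose by 0.74 (SE 0.11, edgeR adjusted p = 8.46e-05), and without culture 1 the blocked value was 0.74 (adjusted p = 0.00091). Of the 10520 genes tested, 0.238% had a larger log2 fold change than Insm1.

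Neurod1, a helix-loop-helix factor of differentiating neurons that acts after the neurogenins, lies at chr2:79452521-79456751 on the minus strand. It had 19.0, 17.8 and 28.5 CPM with vehicle in cultures 1, 3 and 4, and 23.4, 20.5 and 27.8 CPM with 10HDA. Culture 4 was the highest in both treatments, and the groups overlapped. The log2 fold change was 0.13 (SE 0.19, 95% CI -0.29 to 0.55, edgeR adjusted p = 0.82), and with culture as a block 0.15 (adjusted p = 0.51). It was 0.014 without the 10HDA library of culture 4 and 0.39 without the vehicle library of culture 4. Its exons overlap those of Cerkl on the same strand and of Gm26755 on the other, which had 8 to 15 and 0 to 1 counts per library, against 207 to 335 for Neurod1.

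Eomes, the T-box factor that defines intermediate progenitors, lies at chr9:118478212-118486132 on the plus strand and was the least expressed of the 9 per unit of gene length. It had 24, 43 and 24 counts with vehicle in cultures 1, 3 and 4, and 38, 45 and 11 with 10HDA. These were 2.20, 3.33 and 2.04 CPM with vehicle and 3.33, 3.32 and 1.23 CPM with 10HDA. The 10HDA library was the higher one in culture 1 and the lower one in culture 4, with log2 differences of 0.56 and -0.65, and in culture 3 the difference was -0.0033. In the filterByExpr fit the log2 fold change was 0.11 (SE 0.34, 95% CI -0.64 to 0.86, edgeR adjusted p = 0.93). Without culture 1 the value was -0.17. The antisense gene Gm33460, whose exons overlap those of Eomes, was not analysed here.

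Hes6, a Hes-family protein that counteracts Hes1 and favours neuronal differentiation, lies at chr1:91411483-91414038 on the minus strand and was the most highly expressed of the 9. It had 59.2, 57.5 and 44.7 CPM with vehicle in cultures 1, 3 and 4, and 69.2, 77.4 and 56.2 CPM with 10HDA. The 10HDA library was the higher one in each culture, but the groups overlapped because culture 4 was low in both treatments. Mean levels were 53.8 ± 7.92 and 67.6 ± 10.7 CPM (mean ± SD, 3 libraries each), and the log2 fold change was 0.33 (SE 0.14, 95% CI 0.016 to 0.65, edgeR adjusted p = 0.47). Hes6 rose with culture as a block, by 0.33 (SE 0.10, edgeR adjusted p = 0.053). This call was lost when culture 3 or culture 4 was left out of the blocked fit (adjusted p = 0.12 and 0.35) and in DESeq2 with the block (adjusted p = 0.14), and it was kept without culture 1 (adjusted p = 0.056).

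Dll1, the Notch ligand of committed cells, lies at chr17:15367354-15376872 on the minus strand. It had 30.5, 33.1 and 27.5 CPM with vehicle in cultures 1, 3 and 4, and 31.2, 35.9 and 29.2 CPM with 10HDA. The 10HDA library was slightly higher in each culture, and the groups overlapped. The log2 fold change of 0.082 had a standard error of 0.13 and a 95% CI of -0.20 to 0.36 (edgeR adjusted p = 0.83), and with culture as a block the interval was -0.15 to 0.30. A930024N18Rik, a long non-coding RNA gene on the opposite strand whose exons overlap Dll1, had 46 to 73 counts per library, against 260 to 487 for Dll1, and a log2 fold change of -0.022.

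Mfng, a glycosyltransferase that modifies Notch receptors, lies at chr15:78755882-78773475 on the minus strand and stayed under 10 CPM. It had 71, 94 and 62 counts with vehicle in cultures 1, 3 and 4, and 64, 118 and 38 with 10HDA, or 6.50, 7.27 and 5.27 CPM and 5.62, 8.70 and 4.26 CPM. The 10HDA library was the higher one in culture 3 and the lower one in cultures 1 and 4. In the filterByExpr fit the log2 fold change was 0.0019 (SE 0.25, 95% CI -0.53 to 0.54, edgeR adjusted p = 0.999).

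Btg2, an antiproliferative gene that is induced in progenitors about to make neurons and is also a target of p53, lies at chr1:134075170-134079120 on the minus strand. With vehicle it had 16.6, 20.6 and 13.9 CPM in cultures 1, 3 and 4, from 181, 266 and 164 counts. With 10HDA it had 23.9, 34.1 and 22.3 CPM, from 272, 462 and 199 counts. Every 10HDA library was above every vehicle library. Mean levels were 17.0 ± 3.34 and 26.8 ± 6.38 CPM (mean ± SD, 3 libraries each), and the log2 fold change was 0.66 (SE 0.19, 95% CI 0.23 to 1.08, edgeR adjusted p = 0.28). Within cultures 1, 3 and 4 the log2 differences were 0.52, 0.72 and 0.67. Btg2 rose with culture as a block, by 0.65 (SE 0.12, edgeR adjusted p = 0.0012), and without culture 1 the blocked value was 0.72 (adjusted p = 0.0030).

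Gadd45g, a stress-inducible gene that is also switched on in newly committed neuronal precursors, lies at chr13:51846678-51848468 on the plus strand. It had 141, 122 and 98 counts with vehicle in cultures 1, 3 and 4, and 104, 221 and 99 with 10HDA, or 12.9, 9.44 and 8.33 CPM and 9.13, 16.3 and 11.1 CPM. Culture 1 was lower with 10HDA, by a log2 difference of -0.49, and cultures 3 and 4 were higher, by 0.78 and 0.41. The log2 fold change was 0.27 (SE 0.23, 95% CI -0.24 to 0.77, edgeR adjusted p = 0.69), and with culture as a block 0.25 (adjusted p = 0.47). Without culture 1 the blocked value was 0.64 (edgeR adjusted p = 0.046), and without culture 3 it was -0.069.

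**Figure D2:**
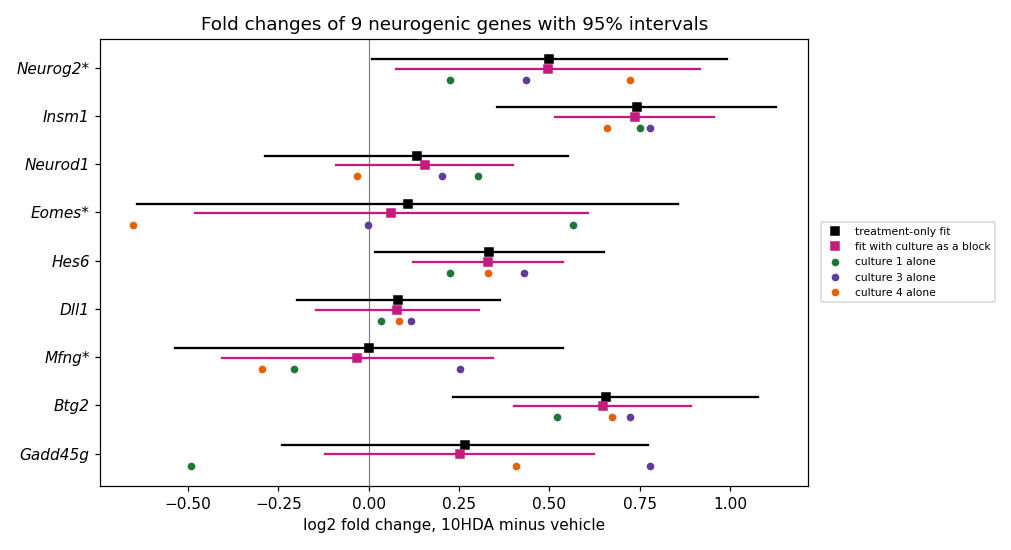
Log2 fold change, 10HDA minus vehicle, of the 9 genes with 95% CIs, from the fit of treatment alone and from the fit with culture as a block, and the difference within each culture as a point. Asterisks mark Neurog2, Eomes and Mfng, whose values come from the looser filter. The intervals of Insm1, Btg2, Hes6 and Neurog2 lie above 0 in both fits, and the cultures of Eomes, Mfng, Neurod1 and Gadd45g fall on both sides of 0.

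Per kilobase of gene length (RPKM, from the lengths in the count table), Hes6 was the highest of the 9 with vehicle, at 29.7 ± 4.38 RPKM (SD, n = 3). Insm1 (8.80 ± 1.67 RPKM), Gadd45g (8.72 ± 2.04), Neurod1 (7.96 ± 2.14), Dll1 (7.20 ± 0.662) and Btg2 (6.21 ± 1.22) followed, and neighbours in this order differed by less than their SD. Mfng (2.24 ± 0.356 RPKM), Neurog2 (1.60 ± 0.211) and Eomes (0.607 ± 0.169) were the lowest, each below its neighbour by more than the larger of their SDs. With 10HDA, Hes6 was again the highest (37.4 ± 5.93 RPKM) and Insm1 the next (14.7 ± 3.26), and Btg2 had 9.75 ± 2.33 RPKM. Neurog2 (2.26 ± 0.491 RPKM) and Mfng (2.18 ± 0.801) did not differ beyond their SD with 10HDA, and Eomes had 0.633 ± 0.291.

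**Figure D3:**
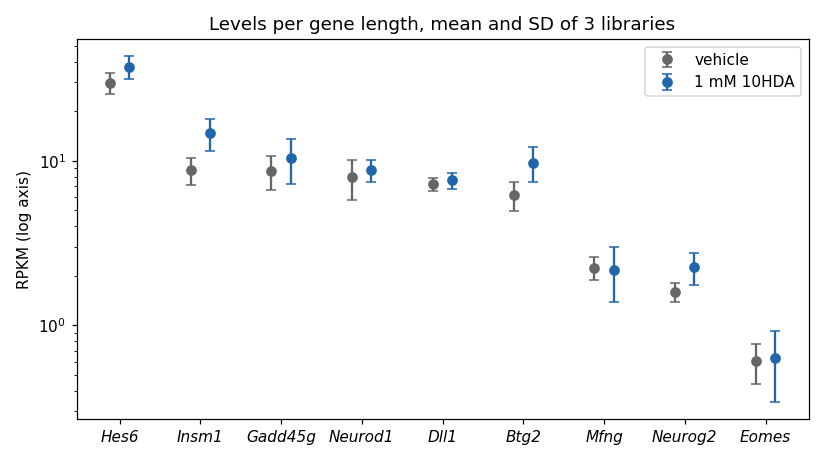
Level of the 9 genes per kilobase of gene length, as RPKM on a log axis, in order of the vehicle mean. Points and bars give the mean and SD of 3 libraries. Hes6 stands highest and Eomes lowest in both treatments, and the bars of Insm1 do not overlap between treatments.

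The stretch before the annotated start was read from RefSeq (GRCm38.p6) for the 7 members found in the table used here, namely Eomes, Neurog2, Hes6, Btg2, Dll1, Gadd45g and Neurod1. Insm1 and Mfng were not analysed here. The 250 bases before the start, for the start farthest upstream where there were 2, are shown for Hes6 and Btg2, which rose together with culture as a block, and for Dll1, the ligand beside them in the pathway, which did not pass. Capitals mark the E-box, CANNTG, which basic helix-loop-helix factors bind. It reads the same on both strands.
Hes6, chr1:91414039-91414288, minus strand: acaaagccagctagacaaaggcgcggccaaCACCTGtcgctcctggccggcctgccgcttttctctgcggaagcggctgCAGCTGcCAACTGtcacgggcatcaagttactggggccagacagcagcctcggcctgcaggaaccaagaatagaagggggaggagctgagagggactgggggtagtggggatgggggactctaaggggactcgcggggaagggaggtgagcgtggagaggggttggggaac
Btg2, chr1:134079156-134079405, minus strand: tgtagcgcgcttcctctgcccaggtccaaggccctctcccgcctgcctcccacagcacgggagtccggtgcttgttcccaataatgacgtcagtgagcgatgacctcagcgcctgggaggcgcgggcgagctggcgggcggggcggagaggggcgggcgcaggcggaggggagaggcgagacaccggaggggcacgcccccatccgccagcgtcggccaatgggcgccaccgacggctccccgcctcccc
Dll1, chr17:15376933-15377182, minus strand: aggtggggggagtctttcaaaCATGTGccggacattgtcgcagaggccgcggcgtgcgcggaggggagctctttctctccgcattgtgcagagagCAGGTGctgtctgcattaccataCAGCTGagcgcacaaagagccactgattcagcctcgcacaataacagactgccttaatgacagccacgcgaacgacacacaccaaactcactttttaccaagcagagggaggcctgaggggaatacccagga
The windows of Hes6 and Dll1 shown here each held 3 E-boxes and that of Btg2 held 0, where 66.2% of the 32851 RefSeq windows of this length held at least 1. The windows at the other start of Hes6 and of Dll1 each held 1. The window of Gadd45g held 3, that of Neurod1 held 1 and those of Eomes and Neurog2 held 0. The Btg2 window held 1 match to TGGGAA, the core bound by RBPJ (searched on both strands, the other being TTCCCA), which 21.6% of all windows held. CAGATG, or CATCTG on the other strand, a form of the E-box that neurogenins prefer, was in none of the members' windows and in 14.4% of all windows. These matches describe letters in the windows and not bound sites.

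Further genes of these steps were read from lists. Of 14 further markers of intermediate progenitors, 9 were tested and 0 passed in edgeR's quasi-likelihood test of treatment alone, with 1 at an unadjusted p under 0.05 and a median log2 fold change of 0.072. That gene was Unc5d, which encodes a netrin receptor, at 49.96 ± 10.8 CPM with vehicle and 34.3 ± 1.08 with 10HDA (mean ± SD, 3 libraries each), and the log2 fold change was -0.55 (adjusted p = 0.24). Unc5d fell with culture as a block, by 0.53 (edgeR adjusted p = 0.0069), in the direction opposite to Insm1. Sstr2, a somatostatin receptor, was at -0.27 on the log2 scale in the fit of treatment alone (adjusted p = 0.56). Unc5d and Sstr2 were the only 2 of the 9 tested with fold changes below 0. The other 7 were above 0, as were 47.85% of all genes tested. Neurog1, Neurod4, Nhlh1 and Tac2, which mark this stage in the embryo, averaged 0 to 0.458 CPM. Without culture 1 the median of the list was -0.013.

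Of 24 proneural and neuronal differentiation factors, a list that includes Neurog2, Insm1, Neurod1 and Eomes, 18 were tested. None passed in edgeR's quasi-likelihood test of treatment alone, with 2 at an unadjusted p under 0.05, and their median log2 fold change was 0.055 (-0.019 without culture 1). Insm1 and Sox4 rose and Elavl4 fell with culture as a block. Sox4, which encodes a SoxC factor of newborn neurons, had 158 ± 35.4 CPM with vehicle and 192 ± 20.5 with 10HDA (mean ± SD, 3 libraries each), and the blocked log2 fold change was 0.30 (adjusted p = 0.067). Elavl4, a neuronal RNA-binding protein, had a blocked value of -0.28 (edgeR adjusted p = 0.076). Tbr1, the factor that follows Eomes in new excitatory neurons, was at -0.23 in the fit of treatment alone (adjusted p = 0.52).

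Of 32 Notch pathway genes, with Dll1 and Mfng among them, 20 were tested, and 0 passed in edgeR's quasi-likelihood test of treatment alone, with 1 at an unadjusted p under 0.05. Their median log2 fold change was 0.0075, beside 0.086 with library size alone as the scaling. Notch2, a receptor, had 52.8 ± 6.74 CPM with vehicle and 42.2 ± 2.90 with 10HDA (mean ± SD, 3 libraries each), with all 10HDA libraries below all vehicle libraries. Notch2 fell with culture as a block, by 0.32 (edgeR adjusted p = 0.065). Numb, an inhibitor of Notch, had 0.26, and the ligand gene Jag2 had 0.19 in the fit of treatment alone (adjusted p = 0.53 and 0.55). From a list of Id, Hes and Hey genes and Rest, 6 were tested. Of these, 0 passed with treatment alone, with 1 at an unadjusted p under 0.05. Hes6, which counteracts Hes1, rose with the block. Rest, a repressor of neuronal genes, had 0.29 with either fit (adjusted p = 0.50, and 0.21 with the block). Id4, an inhibitor of helix-loop-helix factors, had 0.11, and 0.12 with the block (adjusted p = 0.81 and 0.64).

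Btg2 belongs to further families. Of 6 BTG and TOB genes, 4 were tested and Btg2 alone passed with the block, and Btg1 and Tob1 had log2 fold changes of 0.17 and -0.12 (edgeR adjusted p 0.72 and 0.71). Of 18 p53 targets, a list that includes Btg2, 13 were tested, 2 rose in the test of treatment alone and 5 with the block, and all 13 had fold changes above 0 with a median log2 value of 0.26. Of all 10520 genes, 21 rose with treatment alone, 3.91% rose with the block and 5034 had fold changes above 0. The p53 targets that rose in both fits were Bbc3, which encodes the pro-apoptotic protein Puma, and Sesn2, a stress-response gene. With treatment alone they rose by 0.88 (adjusted p = 0.035) and 0.80 (adjusted p = 0.043), both from edgeR's quasi-likelihood test. Ccng1, a cyclin gene induced by p53, had 0.39 (adjusted p = 0.18), and with the block it rose by 0.39 (adjusted p = 0.020). On the same list Mdm2, Plk2 and Zmat3 were near 0, at 0.0049, 0.0051 and 0.0049, and Cdkn1a had 0.20 (adjusted p = 0.53). Of 16 immediate early genes, which also list Btg2, 7 were tested with a median of -0.099. Of these, Jun had -0.47 (adjusted p = 0.23) and fell with the block by 0.47 (adjusted p = 0.012), and Egr1 had 0.30 (adjusted p = 0.57). Of the 7, 3 had fold changes above 0 and 4 below. Egr3, under the expression filter, had -1.27 in the filterByExpr fit (edgeR adjusted p = 0.17). With that filter and the block, Egr3 had -1.23 (edgeR adjusted p = 0.00013), where 7.33% of genes passed. Of Gadd45a, Gadd45b and Gadd45g, Gadd45g alone passed the expression filter.

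Markers of the cells before this stage, of dividing cells and of other cell types were read in the same way. Of 13 tested radial glia genes, 0 passed in edgeR's quasi-likelihood test of treatment alone, with 3 at an unadjusted p under 0.05 and a median log2 fold change of -0.13. With the block 3 fell and 1 rose, where 534 of all 10520 genes fell and 411 rose. Tnc and Fabp7, a matrix protein and a lipid carrier of radial glia, fell by 0.44 and 0.41, and Vim, an intermediate filament gene, rose by 0.32 (adjusted p = 0.0050, 0.0067 and 0.041). With treatment alone, Sox2, Sox9 and Pax6 on this list had 0.14, 0.062 and -0.13 (adjusted p = 0.73, 0.90 and 0.78). Of the 13 tested, 3 had fold changes above 0 and 10 below. The list shares Slc1a3 and Sox9 with the astrocyte list. Of 10 tested genes of dividing cells, 0 passed in either edgeR fit, with 0 at an unadjusted p under 0.05, a median of 0.092 and summed levels of 413 to 455 CPM with vehicle and 403 to 476 with 10HDA. Rrm2, Cdk1 and Top2a had log2 fold changes of 0.26, 0.33 and 0.13. Of the 10 tested, 8 had fold changes above 0 and 2 below, namely Mki67 at -0.19 and Mcm5 at -0.057.

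The 11 tested astrocyte markers had a median log2 fold change of -0.59. Of these, 5 fell in edgeR's quasi-likelihood test of treatment alone, as did 45 of all 10520 genes. The 5 were Gfap, Aldh1l1, Aldoc, Slco1c1 and Clu, which fell by 0.59 to 1.28. Their list summed to 1352 to 1652 CPM with vehicle and 1039 to 1270 with 10HDA. Of the oligodendrocyte lineage, 8 genes were tested with a median of -0.17, 5 lower and 3 higher, and summed levels of 365 to 470 CPM with vehicle and 278 to 395 with 10HDA. Of these, Cspg4 fell with treatment alone, Sox10 and Pdgfra fell with the block, and Olig2 had 0.24 with all 10HDA libraries above vehicle. Of pericyte genes Pdgfrb fell. Shared neuronal markers summed to 7424 to 7856 CPM with vehicle and 6080 to 6774 with 10HDA, with a median of -0.28 over 11 tested genes. Of these 11, 0 passed with treatment alone, with 6 at an unadjusted p under 0.05, and 6 fell with the block. The excitatory and interneuron lists had medians of -0.12 and -0.23, and 2 of 12 and 5 of 13 tested genes fell with the block. Of all 10520 genes, 534 fell with the block. Of the microglial markers, 0 of 10 passed the expression filter, and the defining genes Tmem119, Cx3cr1 and P2ry12 averaged 0 to 0.139 CPM. Of the meningeal list Pdgfra alone was tested, which the oligodendrocyte list also holds, with a log2 fold change of -1.21. Without culture 1, 0 genes of any of these lists or of the p53 targets passed with treatment alone, and with the block 6 astrocyte markers, 6 shared neuronal markers, 6 p53 targets, 4 radial glia genes, 3 oligodendrocyte genes, 2 excitatory genes and 1 interneuron gene did. The blocked fit without culture 1 found 711 genes in all. The part of these markers in the levels of Insm1, Btg2 and Hes6 was not tested.

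**Figure D4:**
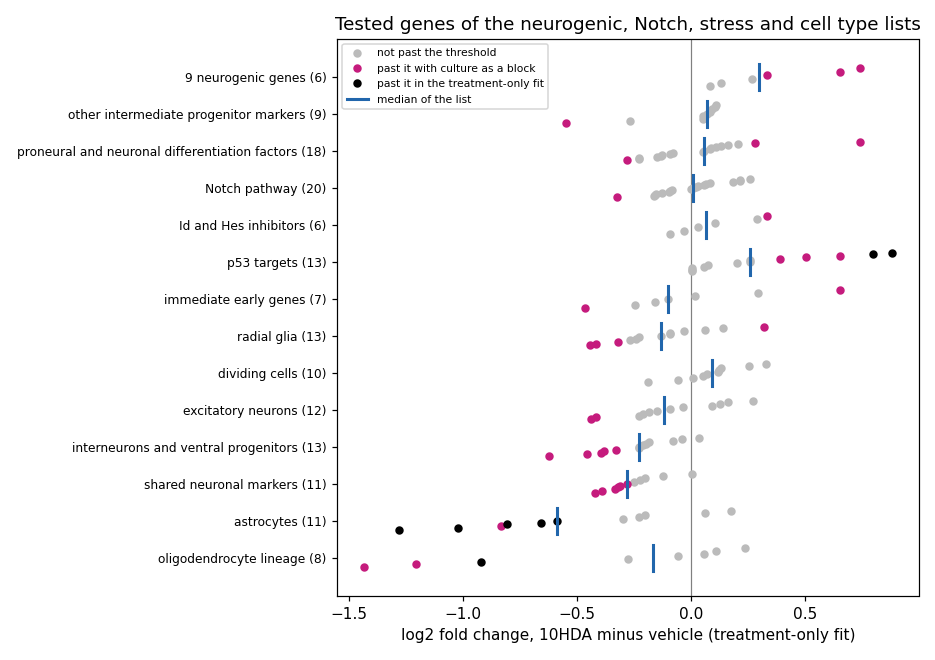
Log2 fold change, 10HDA minus vehicle, of every tested gene of 14 lists in the fit of treatment alone, with the number tested in brackets and the list's median as a bar. Grey points did not pass, magenta points passed with culture as a block and black points passed with treatment alone. The medians of the 6 tested neurogenic genes (0.30) and of the p53 targets (0.26) lie to the right of 0, those of the other progenitor and Notch lists close to 0, and that of the astrocyte markers at -0.59.

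The 5 tested genes whose log2 CPM followed the mean standardized profile of the 6 tested members most closely over the 6 libraries were Ier5, Gm4430, Kctd7, Oaz2-ps and H2afx, with Pearson's r of 0.991, 0.983, 0.980, 0.978 and 0.977. The 6 libraries come from 3 cultures and share the treatment difference, so r describes these libraries only. The tested members did not share a single profile. Neurod1 had negative r with each of the others, from -0.72 with Dll1 to -0.064 with Insm1. Other pairs of tested members had 0.51 to 0.97. Ier5, an immediate early response gene, had 27.1 ± 1.80 CPM with vehicle and 34.9 ± 6.47 with 10HDA (mean ± SD, 3 libraries each). The log2 fold changes of these 5 genes ran from 0.22 to 0.40.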

How the data were processed

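Single-end reads were, per the methods of the study, aligned untrimmed by the authors to mm10 with Subjunc of Subread 1.4.4 and counted on Gencode gene models of GRCm38 with featureCounts. The deposited values are raw counts per gene, neither normalized nor filtered, and the deposited gene lengths are in bases. The library kit keeps strand, and whether counting used it is not given in the sources used here. Each column was assigned by the library number shared with the sample title, with 0 sample columns left over. Symbols and positions came from GENCODE M21 (98.0% of identifiers matched), and promoter windows from RefSeq.

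Genes that reached 10 CPM in 3 or more libraries were compared with edgeR 4.0.16 in R 4.3.3 (TMM, glmQLFit, glmQLFTest, two-sided, Benjamini-Hochberg adjustment at 0.1), following the study's filter and threshold, which name no culture term. Standard errors are the log2 fold change over the square root of F. Members under the filter were read from a fit with filterByExpr. The common dispersion corresponded to a coefficient of variation of 0.116 (0.0849 under the block). Exact permutation tests of single values were left out, since 3 against 3 libraries allow no p under 0.1. The labels give each treatment 1 library per culture, so culture numbers pair the libraries. Deviations from the treatment means correlated across genes at 0.37, 0.24 and 0.62 within cultures 1, 3 and 4, and at -0.45 to 0.18 between cultures, and genes are not independent replicates. Libraries are from separate cultures, but animals are not named.

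The 9 members and the lists were chosen with earlier results of these data known, and lists are described by counts and medians without a set test. The genes named are the 9 members, genes of a list past the threshold, for pathway lists also the 3 tested genes with the smallest p, and the 5 genes most alike in profile. Of the genes this rule names, 1 is not reported here. Others (Sox4, Pdgfra, Sox10, Olig2, Mdm2, Plk2, Zmat3, Cdkn1a, Sox2, Sox9, Pax6, Hes1, Nhlh2, Mki67, Mcm5, Egr3, the microglial genes and genes near 0 CPM) were named after their values were seen. The alternatives were other scalings, filters and a threshold of 0.05, DESeq2 1.42.0, limma-voom 3.58.1, the culture block, and each library and each culture left out. The procedures were tested on simulated data. The tool list in the submitters' processing notes also names FastQC and edgeR 3.4.2.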

Additional observations from a re-analysis of the deposited data

How the results depend on the processing

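Without culture as a block, the members past an adjusted p of 0.1 rose from 0 to 2 in DESeq2 (170 genes in all) and with no filter (636 genes), Insm1 and Btg2 both times. With the replicate block, which pairs the libraries of a culture, they were 3 of 6 (945 genes), and 3 of 9 with filterByExpr (1149 genes). The block changed no other member's call. Alternatives chosen after seeing the data combined the block with cultures 1, 3 or 4 left out, giving 4, 2 and 2 members and 711, 1150 and 277 genes. They also gave 2 members and 389 genes in DESeq2 and 3 members and 977 genes in limma-voom. Without the block, leaving out single libraries gave 0 to 2 members and 0 to 350 genes, with the 2 members and 350 genes reached without 10HDA replicate 4 and 0 genes without 10HDA replicate 1. Leaving out culture 1, 3 or 4 gave 3, 0 and 36 genes, and a threshold of 0.05 gave 43. The cause of these differences was not tested.

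The members' median log2 fold change of 0.30 was 0.53 without culture 1 (0.52 with the block), 0.23 to 0.46 without single libraries and 0.31 to 0.38 under other scalings. Without culture 1 and with treatment alone, the member that moved most was Gadd45g, from 0.27 to 0.65. Insm1, Btg2, Hes6, Neurog2 and Neurod1 were above 0 in all 25 alternatives. Mfng was below 0 in 13, at -0.0080 (DESeq2 size factors), -0.0023 (upper quartile), -0.016 (DESeq2), -0.029 (limma-voom), -0.0017 (no filter), -0.031 (block, either filter), -0.12 (without vehicle replicate 4), -0.35 (without 10HDA replicate 3, against 0.19 without 10HDA replicate 4), -0.25 (without culture 3, and -0.26 with the block), -0.066 (DESeq2 with the block) and -0.012 (limma-voom with the block). Eomes, above 0 otherwise (up to 0.39 without 10HDA replicate 4), turned to -0.028 without vehicle replicate 4, -0.083 and -0.10 without 10HDA replicates 1 and 3, and -0.17 without culture 1 (-0.23 with the block). Without single libraries Dll1 ran from -0.0081 (without 10HDA replicate 3) to 0.17. Gadd45g ran from -0.018 (without 10HDA replicate 3) to 0.49 without single libraries, and turned to -0.072 without culture 3 (-0.069 with the block). Id4 ran from -0.015 (without vehicle replicate 1) to 0.26, and turned to -0.0036 without culture 1 (-0.0042 with the block). Of the list medians under the alternatives, 353 moved by less than their spread over cultures and 72 by more. At 11 to 118 counts per library, Eomes, Neurog2 and Mfng had wide intervals.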

Other observations

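Among relatives of the 9 genes with under 10 CPM, 2 had 10HDA libraries that all lay above the vehicle libraries, as did 6.79% of the 15676 genes kept by filterByExpr. They were chosen after their values were seen. The Notch ligand gene Dll4 had 35, 41 and 38 counts with vehicle in cultures 1, 3 and 4 and 57, 60 and 36 with 10HDA, or 3.20 ± 0.0286 and 4.49 ± 0.485 CPM (mean ± SD, 3 libraries each). Its log2 fold change was 0.50 (SE 0.20, edgeR adjusted p = 0.42), and 0.50 with culture as a block (adjusted p = 0.20). Gadd45a, a DNA damage gene of the Gadd45 family that p53 induces, had 18, 34 and 20 counts with vehicle and 35, 38 and 29 with 10HDA, or 1.99 ± 0.553 and 3.04 ± 0.226 CPM. Its log2 fold change was 0.60 (SE 0.26, edgeR adjusted p = 0.45), and 0.60 with culture as a block (adjusted p = 0.21). Neither passed the threshold in either fit. In the other direction, Hes1 and Nhlh2, relatives also under 10 CPM, had 10HDA libraries that all lay below the vehicle libraries. Their log2 fold changes in the filterByExpr fit were -0.25 and -0.45 (edgeR adjusted p = 0.69 and 0.53). Of the 10520 genes past the 10 CPM filter, which leave out Hes1 and Nhlh2, 783 lay below in this way. The same share among the 15676 genes kept by filterByExpr was not counted here.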
